A study of Mus musculus with 16 samples.

Results

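5.8S rRNA, listed in the deposited files as ribo_5.8S, was taken whole, from nucleotide 1 to its last: 147 positions that held read starts and the 9 after them that held none, out of 6878 positions over 4 rRNAs. It was followed by Ψ-seq, a method that maps pseudouridine, in CD4 T cells of female mice that had been activated for 20 h on plates coated with anti-CD3 and anti-CD28. Control mice were Rnmt fl/fl CD4cre -, and Rnmt cKO mice were Rnmt fl/fl CD4cre +, so both carried the floxed alleles and only the cKO carried the Cre. The study compared 4 animals of each genotype, and the RNA of each animal was divided into a library treated with 0.17 M of the carbodiimide CMC and a mock library treated without it, which gave 16 libraries. Rnmt encodes the methyltransferase that completes the mRNA cap. The Cre is driven by Cd4 regulatory sequences, which are first active in developing thymocytes, so the deletion begins before the T cells mature. The files hold rRNA positions only, so neither the loss of Rnmt nor the T cell identity could be checked in them. The samples are bulk cells, in which fewer cells of a type and less RNA per cell cannot be told apart.

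5.8S rRNA is made by RNA polymerase I as part of the long precursor that also holds 18S and 28S rRNA, and lies between both internal transcribed spacers. It is freed by nucleases, pairs with the 5′ region of 28S rRNA and stays in the large ribosomal subunit. Mammalian 5.8S rRNA carries pseudouridines at nucleotides 55 and 69, made by a pseudouridine synthase guided by H/ACA small nucleolar RNAs, and it can carry 2′-O-methyl groups on the riboses of nucleotides 14 and 75, which C/D box small nucleolar RNAs guide. In Ψ-seq, CMC leaves an adduct on pseudouridine, and reverse transcription stops just before it, so reads start 1 nucleotide downstream of the modified base, at nucleotides 56 and 70. A 2′-O-methyl group protects the bond 3′ of it from alkaline hydrolysis, the step that fragments the RNA in this protocol, so fewer fragments are formed that start at nucleotides 15 and 76.

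The libraries held 1130058 to 2165668 read starts on the 4 rRNAs, of which 75590 to 249397 fell on 5.8S. Read starts per nucleotide were 2.01 to 6.92 times as dense on 5.8S as on 28S rRNA. In the control CMC libraries 5.8S took 12.2%, 9.52%, 10.8% and 11.6% of all read starts for animals 1 to 4, and in the Rnmt cKO CMC libraries 11.9%, 11.2%, 10.7% and 9.28%. In the control mock libraries the share was 4.08%, 11.5%, 10.1% and 9.58%, and in the Rnmt cKO mock libraries 8.21%, 12.3%, 12.4% and 10.95%. The mock library of control animal 1 lay below the other 15 libraries, the mock library of Rnmt cKO animal 1 was the next lowest, and the genotypes overlapped under both treatments.

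In CMC libraries the control mean was 11.04% ± 1.16 (SD, n = 4) and the Rnmt cKO mean 10.8% ± 1.11 (n = 4), a difference of -0.26 percentage points. This difference did not pass an exact permutation test, 2-sided (p = 0.743, adjusted p = 0.743 over 3 comparisons). In the mock libraries they were 8.83% ± 3.27 and 10.98% ± 1.97, a difference of 2.15 points (exact permutation p = 0.343, adjusted p = 0.743). Without the mock library of control animal 1 the control mean was 10.4% ± 0.996 (SD, n = 3) and the difference fell to 0.564 points (exact p = 0.686; the smallest p that 3 against 4 can give is 0.0571). Paired by animal number, the Rnmt cKO mock share was the higher in 4 of 4 pairs, which gives an exact sign-flip p of 0.125, the smallest that 4 pairs can give. Within animals the CMC library had the higher share in 4 of 8, by 1.00 point on average (exact sign-flip p = 0.516), and by -0.017 points over the 7 animals left without control animal 1.

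**Figure D1:**
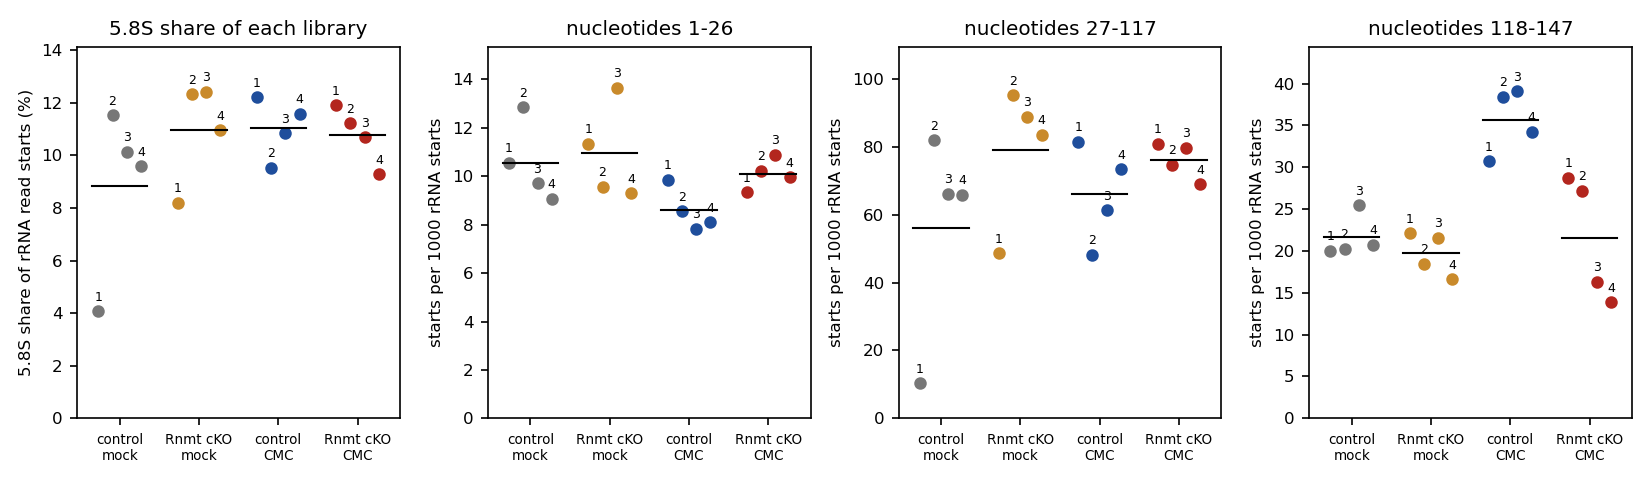
5.8S share of all rRNA read starts per library (left, %) and starts in 3 stretches of 5.8S per 1000 rRNA read starts, by group; points are libraries numbered by animal and bars are means of 4. The mock library of control animal 1 is low in the share and in nucleotides 27 to 117, and lies near the other mock libraries in nucleotides 1 to 26 and 118 to 147.

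The low share of that library came from the middle of the molecule. From nucleotide 27 to 117 the control mock libraries held 10272, 82011, 66212 and 65970 normalised starts (read starts per 1000000 rRNA read starts of the library) for animals 1 to 4, so library 1 was 6.95-fold below the mean of the other 3. Upstream, at nucleotides 1 to 26, the same libraries held 10554, 12862, 9717 and 9073, and library 1 was within the range of the others. Within this stretch it was the lowest at nucleotides 1 to 13, with 6156 against 6691 to 7408. At nucleotide 15 it was the highest, with 2754 against 524 to 1737. Downstream, at nucleotides 118 to 147, they held 20012, 20286, 25494 and 20761, and library 1 was 0.902 times the mean of the others. In stretches of 13 nucleotides its loss was deepest at nucleotides 105 to 117, where its level was 0.0764 times the mean of the other control mock libraries. The level was 0.679 times that mean at 118 to 130 and 1.09 times at 131 to 143. The mock library of Rnmt cKO animal 1 had a smaller loss in the same stretch, with 48603 normalised starts at nucleotides 27 to 117 against 95259, 88940 and 83612 in Rnmt cKO animals 2 to 4. The CMC libraries of these 2 animals held 81588 and 80946 normalised starts in this stretch, the highest of each genotype's CMC libraries. The lowest CMC library was that of control animal 2, with 48226, about as few as the mock library of Rnmt cKO animal 1. What set the mock libraries apart was not tested.

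**Figure D2:**
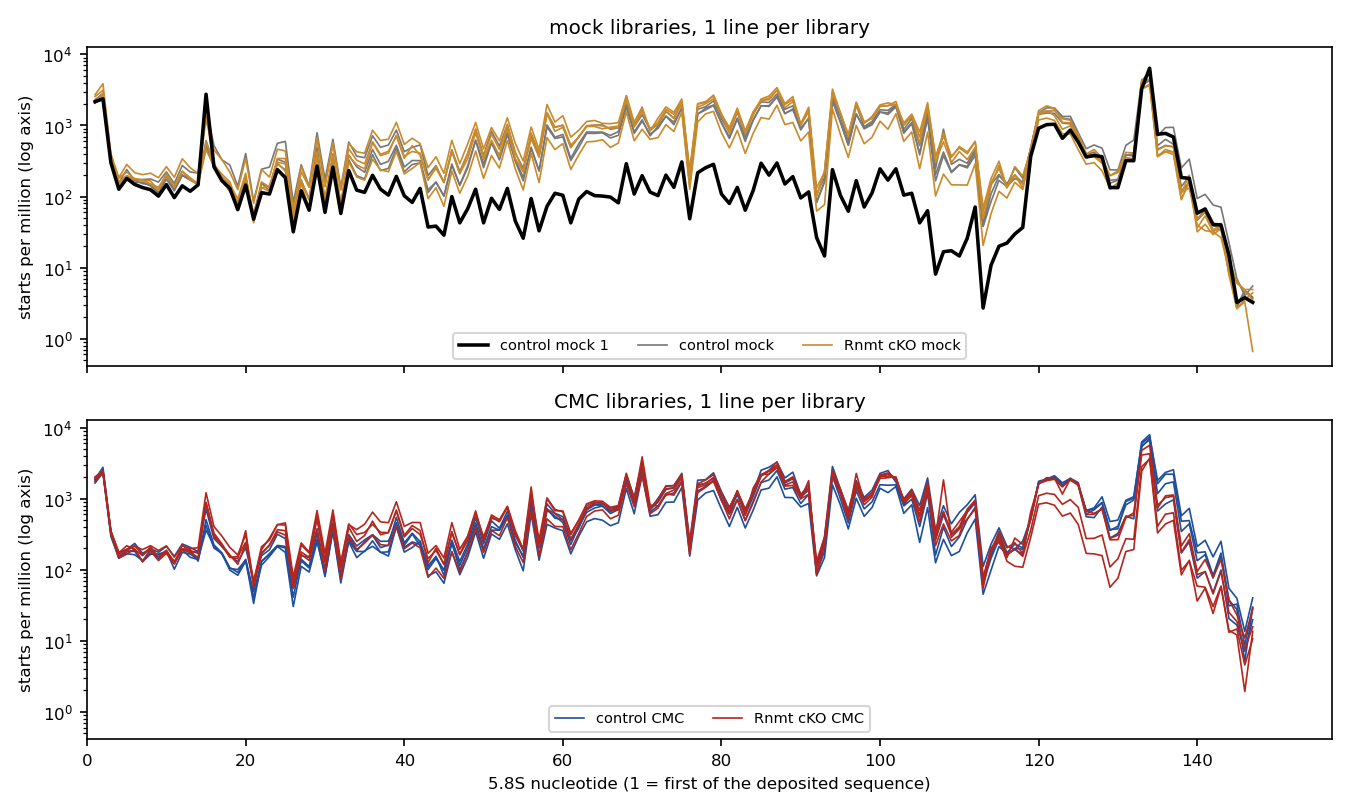
Normalised starts, per 1000000 rRNA read starts (log axis), at each 5.8S nucleotide in the mock libraries (upper) and CMC libraries (lower), 1 line per library, with the mock library of control animal 1 in black. All libraries share peaks at nucleotides 1, 2, 15 and 133 to 134 and dips at 76, 92 and 113; the black line lies furthest below the others between nucleotides 27 and 117.

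Near the 5′ end, starts fell steeply from nucleotide 2 to nucleotide 3 in all libraries. The counts begin at nucleotide 1 of the 5.8S sequence, so starts upstream of it could not be seen. Nucleotide 2 held more starts than nucleotide 1 in 16 of 16 libraries, with 2306 to 3870 against 1662 to 2706 normalised starts. Nucleotide 1 took 1.53%, 2.06%, 1.53% and 1.53% of the 5.8S starts in the control CMC libraries and 5.29%, 2.00%, 2.21% and 2.17% in the control mock libraries. In Rnmt cKO it took 1.49%, 1.79%, 1.75% and 2.17% of the starts in CMC and 3.11%, 1.66%, 2.18% and 1.95% in mock libraries. The mock library of control animal 1 was high by this measure, but in normalised starts its nucleotide 1, at 2162, was within the 2084 to 2302 of the other control mock libraries.

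In CMC libraries the mean share at nucleotide 1 was 1.66% ± 0.263 for control and 1.80% ± 0.280 for Rnmt cKO (SD, n = 4 each; exact permutation p = 0.543). In mock libraries it was 2.92% ± 1.59 and 2.22% ± 0.624, a difference of -0.70 points (exact p = 0.514, adjusted p = 0.543). Paired by animal number, the Rnmt cKO mock share at nucleotide 1 was the lower in 4 of 4 pairs (exact sign-flip p = 0.125, the smallest that 4 pairs can give). Without the mock library of control animal 1 the difference of the means was 0.0961 points. CMC libraries had the higher share in 3 of 8 animals, with a mean difference of -0.84 points (exact sign-flip p = 0.0625, adjusted p = 0.188) and of -0.42 points without control animal 1. At the 3′ end the last nucleotide with a start was 147 in all 16 libraries. The 9 nucleotides from 148 on held 0 starts, which allows a share of up to 0.00397% of aligned 5.8S starts in the library with the fewest. A read that starts there has at most 9 nucleotides of 5.8S and may be too short to be aligned. The 0 starts therefore do not show that no fragments began there. Intervals and limits on counts cover counting error only.

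Percent termination, the measure on which Ψ-seq rests, was the number of starts at a nucleotide over the starts in the 65 nucleotides that end there, which stands for the reads that cover it. Mean mock termination was highest at nucleotide 2, where the window holds only nucleotides 1 and 2 (52.3 to 58.8% in the 8 mock libraries, nucleotide 1 left out). The positions that followed were 15, 134, 133 and 68, with means over the 8 mock libraries of 13.03%, 9.26%, 7.56% and 7.23%. The known stops were lower in mock libraries, with means of 2.58% at nucleotide 56 and 4.39% at nucleotide 70.

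**Figure D3:**
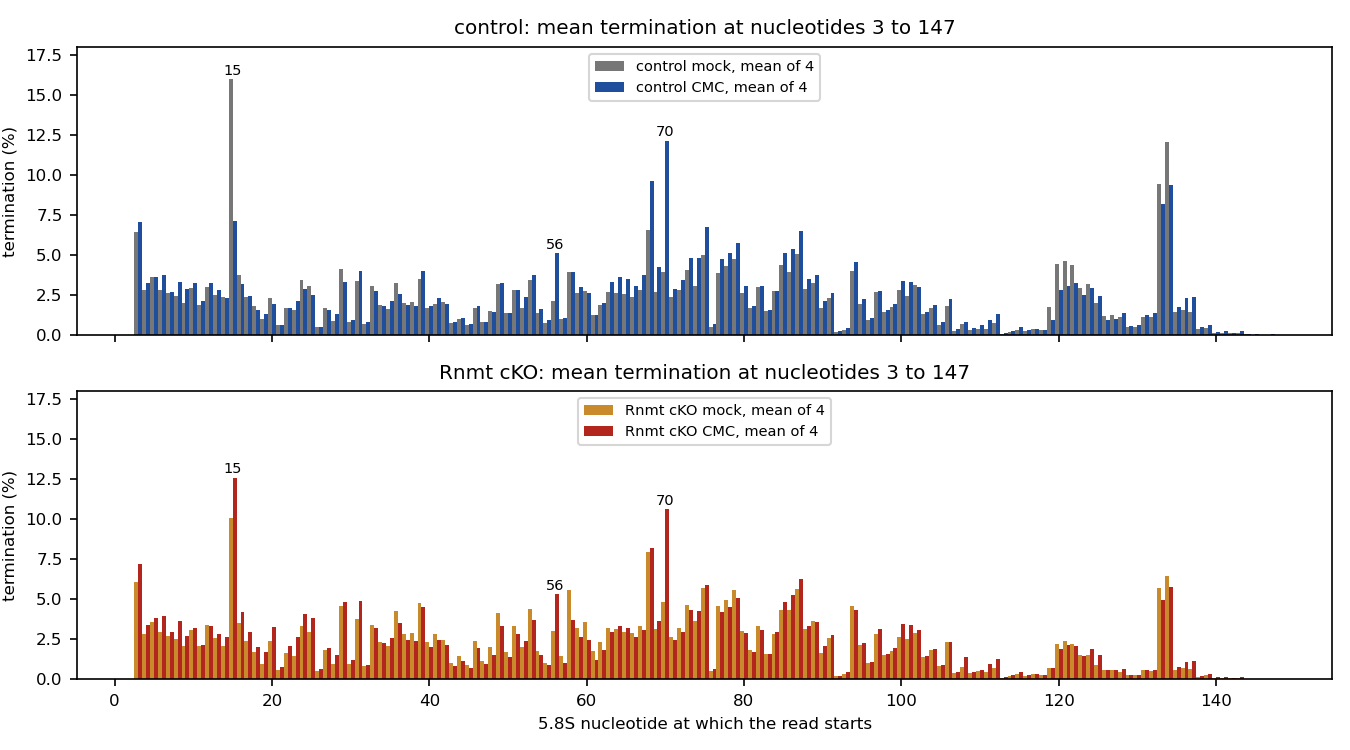
Mean percent termination over 4 libraries at 5.8S nucleotides 3 to 147, mock beside CMC, for control (upper) and Rnmt cKO (lower). Stop 70 is the tallest CMC bar in control, the bars of CMC and mock differ clearly at 56 and 70, and at nucleotide 15 the mock bar is taller in control and the CMC bar in Rnmt cKO.

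At nucleotide 70, the stop next to pseudouridine 69, CMC termination was 12.5%, 11.9%, 11.95% and 12.3% in control animals 1 to 4, and 10.9%, 12.1%, 9.57% and 9.90% in Rnmt cKO animals. Mock termination there was 1.94%, 3.98%, 4.79% and 5.06% in control and 4.31%, 4.73%, 5.11% and 5.20% in Rnmt cKO. CMC termination was above mock termination in 8 of 8 animals, by 1.87-fold to 6.43-fold, and no CMC library overlapped a mock library. Over all animals the log2 effect of CMC was 1.41 ± 0.169 (SE), with an adjusted p of 0.000144 in edgeR's quasi-likelihood test with the animal as a block.

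At nucleotide 56, the stop next to pseudouridine 55, CMC termination was 4.84%, 4.14%, 5.37% and 6.18% in control and 5.84%, 6.21%, 5.23% and 3.99% in Rnmt cKO. Mock termination was 0.685%, 2.63%, 2.61% and 2.67% in control and 2.19%, 3.62%, 2.53% and 3.69% in Rnmt cKO. It was higher with CMC in 8 of 8 animals, by 1.08-fold in Rnmt cKO animal 4 to 7.07-fold in control animal 1. The log2 effect of CMC was 1.11 ± 0.231 (SE; edgeR, adjusted p = 0.00557), and no CMC library overlapped a mock library here either. With TMM library sizes in place of the window coverage it was 0.962 and no longer passed (edgeR, adjusted p = 0.0747), and the adjusted p ranged from 9.78e-06 to 0.0747 over the alternatives. Without control animal 1 the effects were 0.894 at nucleotide 56 and 1.24 at nucleotide 70, and both passed. The lowest count behind these values was the 174 starts at nucleotide 56 in the mock library of control animal 1, for which the exact 95% binomial interval of the termination is 0.587 to 0.794%.

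Of the 106 5.8S positions tested, 14 rose with CMC and 0 fell at an adjusted p under 0.05 (edgeR; 23 at an unadjusted p under 0.05; DESeq2 called 17, all higher). Among the 4026 positions tested over the 4 rRNAs, 11.5% rose and 10.2% fell (DESeq2, 11.3% and 9.02%), and 34.3% had an unadjusted p under 0.05. Among the positions called, the increases were largest at nucleotides 70 and 56, followed by nucleotide 112 with a log2 effect of 0.89, nucleotide 23 with 0.68 and nucleotide 19 with 0.66. Over the alternatives the adjusted p (edgeR and DESeq2) ran up to 0.378 at nucleotide 23 and 0.402 at nucleotide 19, neither of which passed with TMM library sizes or with the starts of the same rRNA as offset, and up to 0.04996 at 112. Termination at 112 was low, 1.18 to 1.502% in the control and 1.12 to 1.38% in the Rnmt cKO CMC libraries, against 0.629 to 0.926% and 0.643 to 0.742% in the mock libraries. It was nevertheless higher with CMC in 8 of 8 animals, by 1.62-fold to 2.05-fold. Nucleotide 111 had a mean termination of 0.682%, under the 1% needed to be tested, and was higher with CMC in 8 of 8 animals, by 1.87-fold to 3.26-fold. Nucleotides 145 and 147 were also higher in 8 of 8 animals, on as few as 3 starts and 1 start in a library. This was not particular to them. Nucleotides 76, 93 and 113 to 115, also under 1%, were higher in 8 of 8 animals too. The same held at other positions, such as 3, 4, 6, 8 and 9, and the share over all rRNAs was not counted. When starts were set against all 5.8S starts of the library instead of the window, 3 of the 14 positions still rose and 0 fell at the threshold (edgeR), with positive effects at 12 and negative ones at 2. In that fit 8 other positions, between nucleotides 33 and 48, fell, and 9.64% of all rRNA positions rose and 9.66% fell. Without control animal 1, 20 of the 5.8S positions rose and 2, nucleotides 60 and 61, fell, against 12.9% and 15.4% of all rRNA positions. The positions at 3, 4, 6, 8, 9, 33 to 48, 60, 61, 93, 111, 113 to 115, 145 and 147 were named after their values were seen.

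The PSU score, CMC termination over mock termination of the same animal, was 6.43, 2.99, 2.496 and 2.43 at nucleotide 69 in control animals 1 to 4, and 2.52, 2.57, 1.87 and 1.90 in Rnmt cKO animals. At nucleotide 55 it was 7.07, 1.57, 2.06 and 2.31 in control and 2.67, 1.72, 2.07 and 1.08 in Rnmt cKO. All 16 scores were above 1, and control animal 1 was the highest at both nucleotides, with CMC termination like that of the other control animals and the lowest mock termination.

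**Figure D4:**
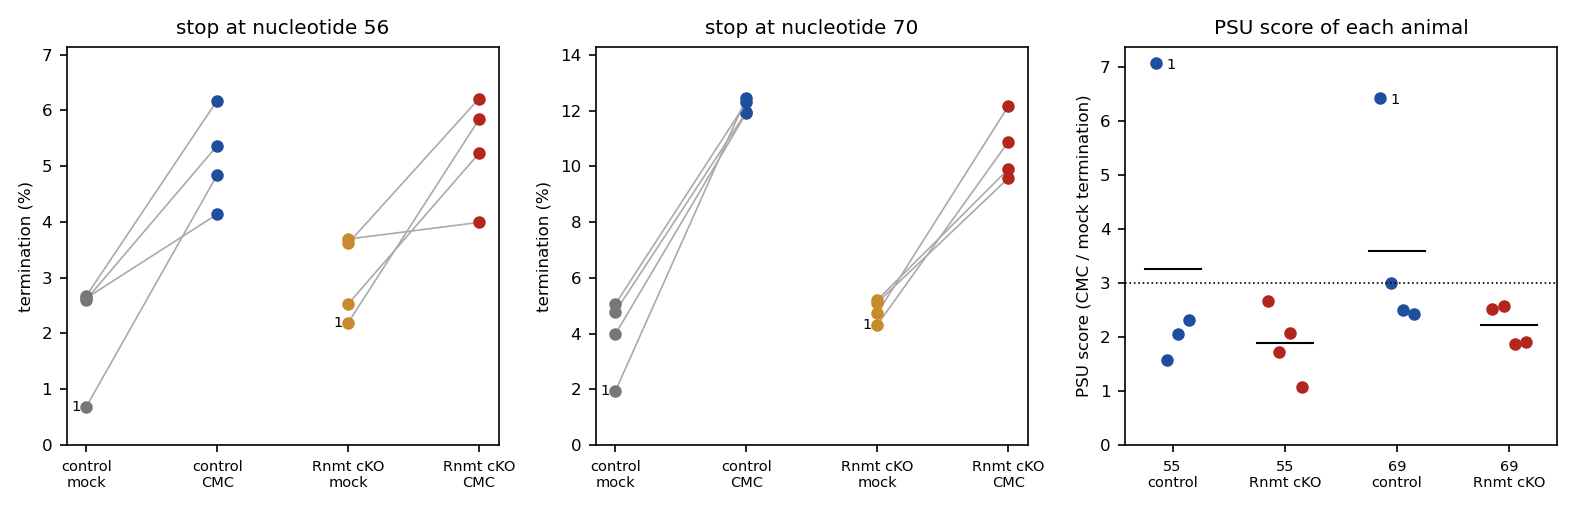
Percent termination at nucleotides 56 (left) and 70 (middle) in the mock and CMC library of each animal, joined by lines, and the PSU scores at nucleotides 55 and 69 (right), with bars for means of 4 and a dotted line at 3. Animal 1 is marked; control animal 1 has the lowest mock termination at both stops and PSU scores of 7.07 and 6.43.

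A site was called where the mean CMC termination of a genotype was at least 3% and its mean PSU score at least 3. On 5.8S 2 sites met this in control, nucleotides 55 and 69, and 0 met it in Rnmt cKO. Over all rRNAs 0.916% of the 6874 positions scored were called in control and 0.931% in Rnmt cKO. Both calls in control were lost without control animal 1. With a PSU threshold of 2, 7 sites were called in control and 1, nucleotide 69, in Rnmt cKO, against 1.21% and 1.13% of the positions of all rRNAs. The 5 others in control were nucleotides 57, 63, 64, 66 and 68, which were named after their values were seen. Without control animal 1 the control mean PSU scores at these 5 were 0.782, 1.11, 1.08, 1.08 and 1.29. At nucleotides 55 and 69 they were then 1.98 and 2.64, so of the 7 only nucleotide 69 stayed above 2. Nucleotides 55 and 69 had the lowest PSU scores of the 70 sites called in either genotype. Their means over 8 animals were 2.57 and 2.90, whereas the median site had 4.84. By CMC termination nucleotide 69, at 11.4%, ranked 1st of the 70 sites, and nucleotide 55, at 5.22%, ranked 40th.

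The mean PSU score at nucleotide 69 was 3.59 in control and 2.22 in Rnmt cKO, a difference of -1.37 with a 95% interval of -3.32 to 0.579 (limma, adjusted p = 0.742 over the 70 sites). At nucleotide 55 the means were 3.25 and 1.88, also a difference of -1.37, with an interval of -3.86 to 1.12 (limma, adjusted p = 0.797). Both nucleotides met the call rule only through the control mean, and were tested whether called or not. Without control animal 1 the differences were -0.42 (interval -1.62 to 0.770) and -0.097 (interval -1.39 to 1.19). With windows of 50, 40 and 30 nucleotides they were -0.74, -0.51 and -0.22 at nucleotide 69, and -1.35, -0.85 and -0.65 at nucleotide 55. With shares of all 5.8S starts in place of terminations they were -0.76 and -0.17. For the log2 of the score the difference was -0.58 at nucleotide 69 (interval -1.20 to 0.0298; limma, unadjusted p = 0.0606, adjusted p = 0.488). At nucleotide 55 it was -0.59 (interval -1.46 to 0.272; limma, adjusted p = 0.673). Neither score differed between genotypes beyond the spread of the animals, and the intervals of the unlogged scores leave differences of more than 1 unit in either direction at nucleotide 55.

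The terminations behind the scores did not differ by genotype at the threshold either. At nucleotide 70 the log2 difference of Rnmt cKO from control was -0.19 ± 0.0841 (SE) in CMC libraries (edgeR, adjusted p = 0.305) and 0.293 ± 0.260 in mock libraries (adjusted p = 0.687), and the interaction of genotype with CMC was -0.57 ± 0.293 (edgeR, adjusted p = 0.785). At nucleotide 56 the same values were 0.0512 ± 0.150 (edgeR, adjusted p = 0.902), 0.483 ± 0.389 (adjusted p = 0.670) and -0.56 ± 0.444 (adjusted p = 0.785). Leaving out control animal 1, the mock difference was 0.0704 at nucleotide 70 and 0.191 at nucleotide 56, and the interaction was -0.26 and -0.13.

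Nucleotides 14 and 75, the sites of 2′-O-methylation, behaved in opposite ways. Starts at nucleotide 76 were few: in the control mock libraries there were 90, 499, 318 and 290, and the median of the flanking positions was 307, 3197, 2366 and 2580. The depletion, 1 minus the ratio of both, was 0.707, 0.844, 0.866 and 0.888 in control and 0.854, 0.876, 0.881 and 0.884 in Rnmt cKO mock libraries. The means were 0.826 ± 0.0814 and 0.874 ± 0.0133 (SD, n = 4 each), a difference of 0.0478 that did not pass (exact permutation p = 0.286, adjusted p = 0.543 over both nucleotides). Without control animal 1 the control mean was 0.866 and the difference 0.00805. Of the 140 5.8S nucleotides with a full set of flanks, nucleotide 75 was the 4th most depleted in control and the 2nd most in Rnmt cKO mock libraries. The other dips of that depth were at starts 92, 93 and 113, which were named after their values were seen.

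Starts at nucleotide 15 were raised, not depleted. In the control mock libraries they were 20.2, 7.81, 3.85 and 3.30 times the flanking median, and in the Rnmt cKO mock libraries 8.44, 3.50, 5.00 and 2.87 times. The depletion score was therefore negative, -7.80 ± 7.88 in control and -3.95 ± 2.49 in Rnmt cKO (SD, n = 4 each; exact permutation p = 0.543). With control animal 1 left out the control mean was -3.99, and the difference fell from 3.85 to 0.0363. In the CMC libraries the direction was the opposite, with -2.13 ± 0.503 for control and -4.26 ± 0.477 for Rnmt cKO (SD, n = 4 each; exact permutation p = 0.0286, the smallest that 4 against 4 can give; adjusted p = 0.0571). The peak was as large as 2754 normalised starts in the mock library of control animal 1 and 1737 in that of control animal 2, against 614 and 524 in those of animals 3 and 4.

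At nucleotide 15, where the window holds nucleotides 1 to 15 only, the genotypes were separated in the CMC libraries but not in the mock libraries. CMC termination was 9.14%, 7.23%, 6.59% and 5.50% in control and 12.5%, 11.2%, 15.1% and 11.5% in Rnmt cKO, so every Rnmt cKO library was above every control library. Mock termination was 30.4%, 18.6%, 7.87% and 7.12% in control and 15.4%, 7.75%, 11.1% and 6.03% in Rnmt cKO, and overlapped. The log2 difference in CMC libraries was 0.825 ± 0.150 (SE), which did not pass across all positions (edgeR, adjusted p = 0.0684). It was 0.968 without control animal 1 and then passed (edgeR, adjusted p = 0.0173), and DESeq2 also called it (adjusted p = 1.93e-05). Over the alternatives the adjusted p ran from 1.93e-05 to 0.282. In mock libraries the difference was -0.67 ± 0.482 (edgeR, adjusted p = 0.654), and -0.15 without control animal 1. The interaction of 1.34 ± 0.371 did not pass (edgeR, adjusted p = 0.785, over the alternatives 0.0794 to 0.969). CMC was above mock termination at this nucleotide in 0 of 4 control and 3 of 4 Rnmt cKO animals, and the effect of CMC over all animals was -0.25 ± 0.274 (edgeR, adjusted p = 0.557), and -0.047 without control animal 1.

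Over the whole of 5.8S no position passed for genotype. In CMC libraries 0 of 107 positions were called by edgeR, against 0% of the 4018 positions of all rRNAs, and 36 had an unadjusted p under 0.05, against 15% of all. DESeq2 called 13, with Rnmt cKO above control at 10 and below it at 3, against 3.06% of the positions of all rRNAs, 2.04% above and 1.02% below. When control animal 1 was left out, edgeR called 8 of 109, against 0.622% of all, 0.448% higher and 0.174% lower in Rnmt cKO. These were nucleotides 15, 20, 24 and 25, which were higher in Rnmt cKO, and 134 to 137, which were lower; apart from 15 and 134 they were named after their values were seen. In mock libraries 0 of 101 positions were called (edgeR, 2 at an unadjusted p under 0.05; DESeq2 0), against 0% of 3985, of which 6.22% had an unadjusted p under 0.05. With the animal number as a block, 1 was called, nucleotide 123, at a log2 difference of -0.82 (edgeR, adjusted p = 0.0381), and 1.00% of the 3985 positions were lower in Rnmt cKO in that fit. The interaction called 0 of 106 (edgeR, 2 at an unadjusted p under 0.05; DESeq2 0), against 0% of 4026, with 6.06% at an unadjusted p under 0.05.

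CMC libraries of the genotypes did not overlap at 13 of 107 5.8S positions, 12.1%, against 7.94% of the positions of all rRNAs. Of these, 9 were higher in Rnmt cKO, and all 9 lay between nucleotides 15 and 25. The other 4, nucleotides 68, 123, 133 and 134, were lower in Rnmt cKO. In mock libraries 0 of 101 positions did not overlap, against 5.37% of the positions of all rRNAs.

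In normalised starts, which do not depend on the window, the CMC libraries of the genotypes failed to overlap in some stretches, described here without a test. At nucleotides 14 to 26 the control CMC libraries held 2935, 2208, 1977 and 2017 normalised starts, and the Rnmt cKO CMC libraries 3297, 3635, 4264 and 3391. At nucleotides 131 to 143 the control CMC libraries held 16679, 23791, 24321 and 19904 and the Rnmt cKO CMC libraries 15262, 13524, 8630 and 8633. The genotypes did not overlap in either stretch, with Rnmt cKO at 1.597 times the control mean in the first and 0.544 times in the second.

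At nucleotides 118 to 130 the CMC libraries did not overlap either, where control held 13968 to 14610 normalised starts and Rnmt cKO held 5175 to 13561. As a share of 5.8S starts they overlapped there, at 11.4 to 15.3% and 5.58 to 12.1%, whereas nucleotides 14 to 26 and 131 to 143 did not overlap on either scale. Nucleotides 27 to 39 did not overlap as a share only, at 2.34 to 2.77% in control and 3.38 to 5.18% in Rnmt cKO. In mock libraries the stretches did overlap: at 14 to 26 control held 2381 to 5454 and Rnmt cKO 2303 to 4348 normalised starts, and at 131 to 143 they held 10752 to 14344 and 9352 to 12481. In these stretches no test was run. A read that starts at nucleotide 131 has at most 26 nucleotides of 5.8S, so the last stretch counts short reads only, and the part of read length in this difference was not tested. The stretches were picked out of 12 after their values were seen. Such stretches were not counted on the other rRNAs, so how often genotypes fail to overlap there is not known.

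**Figure D5:**
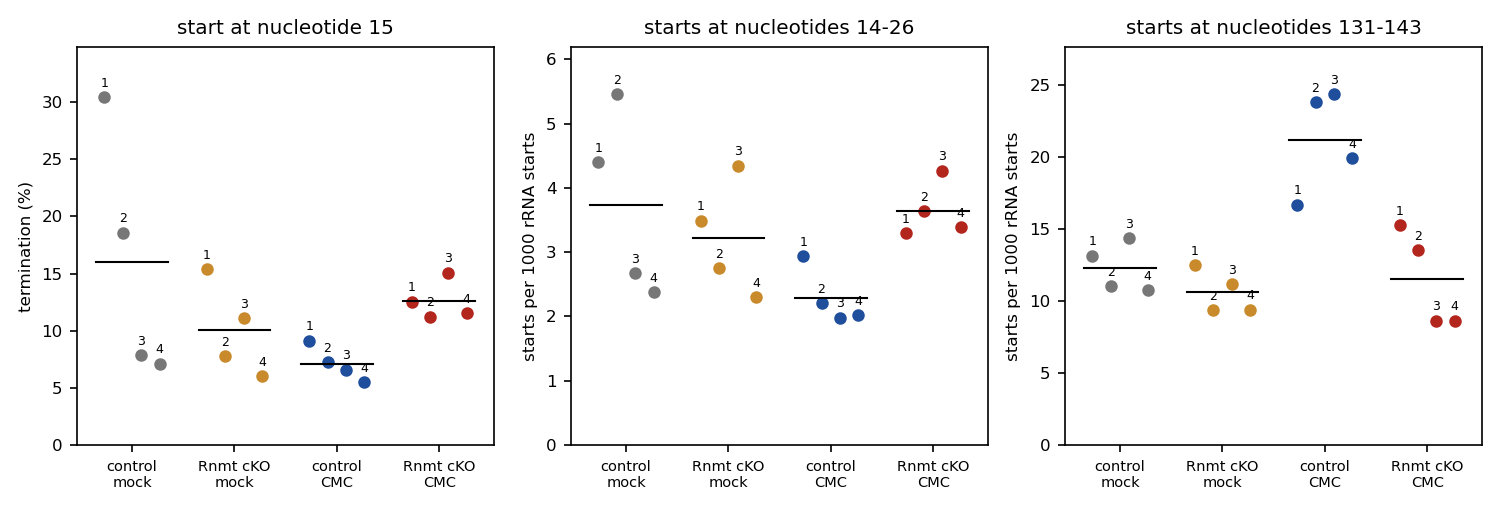
Percent termination at nucleotide 15 (left) and starts per 1000 rRNA read starts at nucleotides 14 to 26 (middle) and 131 to 143 (right), by group; points are libraries numbered by animal and bars are means of 4. In CMC libraries all Rnmt cKO points lie above all control points in the first 2 panels and below them in the third, and in mock libraries the genotypes overlap in all 3. The stretches were picked after their values were seen, and no test was run on them.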

How the data were processed

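Ψ-seq libraries of 16 samples were analysed. By the study's methods the authors removed a random barcode of 10 nucleotides and adapters, aligned reads to custom rRNA sequences with bowtie2, removed PCR duplicates, and discarded secondary alignments and those of MAPQ below 20. The submitters' processing notes also list STAR 2.5.2b, deepTools and mm10, without their role. The deposited values are counts of read starts per nucleotide, not normalised. Runs were expanded to single nucleotides, counted from 1 in the deposited 5.8S sequence. The sequence itself was not used here.

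Coverage was taken as the starts in the 65 nucleotides ending at a position (75 cycles less the barcode), so termination is a lower bound, and for nucleotides below 65 the window ends at nucleotide 1. edgeR 4.0.16 (quasi-likelihood test) was run on the starts with the log of this coverage as offset, over all positions whose mean termination reached 1%, nucleotide 1 of each rRNA left out, with Benjamini-Hochberg adjustment (threshold 0.05). PSU scores were compared with limma 3.58.1 over called sites and over 5.8S nucleotides 55 and 69, called or not. For shares and depletion, exact permutation tests (2-sided) were used, in which p cannot go below 0.0286 for 4 against 4 libraries and 0.00781 for 8 pairs. Depletion set the starts after a nucleotide against the median of its flanking positions. DESeq2 1.42.0 was an alternative (R 4.3.3, Python 3.11.15, scipy 1.17.1, matplotlib 3.10.9).

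Groups and animal numbers came from the titles and characteristics. Whether the replicates were prepared separately in all steps is not stated, so p-values measure the spread between these samples. No replicate pair agreed within sampling noise. Over all rRNA positions, 5.8S included, the mock library of control animal 1 stood apart. Its chi-square per degree of freedom against the other control mock libraries was 42.1 to 45.3, and among those others it was 2.50 to 5.53. Mock libraries with the same number deviated together over the 3985 positions tested (r = 0.658, 0.424, 0.169 and 0.381 for numbers 1 to 4), so the numbers were taken to pair the mock libraries, and paired values are given beside mock shares and where the block changed a call. Without number 1 the correlations were 0.0251, -0.067 and 0.181 for numbers 2 to 4, so over all rRNAs the pairing rests mostly on the number 1 libraries. The pairing was inferred from the same read starts that the paired tests use, so those tests give no independent support. On 5.8S alone r was 0.826, 0.709, -0.24 and 0.818 for numbers 1 to 4. Without number 1 it was 0.428, 0.197 and 0.559 there. In simulated counts edgeR recovered 99.5% of 200 2-fold changes among 4026 positions for the effect of CMC and 99.5% of 200 among 4018 for genotype in CMC libraries. It recovered 89.5% among 3985 for genotype in mock libraries and 77.5% among 4026 for the interaction. The changes were planted among the positions of all rRNAs, with the observed coverage kept. Counts were drawn independently at each position and without an animal effect, which real libraries need not follow. The recovery on 5.8S alone was not measured, so these rates do not give the sensitivity of the comparisons there. The positions named were the known stops and methylation starts, nucleotide 1, the 5 with the highest mock termination, and the 5 with the largest called changes in each direction. The members, lists and stretches were chosen with earlier results of these data known.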

Additional observations from a re-analysis of the deposited data

Results flagged for a closer look

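Of 28 groups of 4 values examined for a sample far from the others (a gap to the nearest value above Dixon's 95% critical share of the range), 5 had such a sample, where chance gives about 1 in 20, or 1.4. Of these, 4 came from control animal 1. Nucleotide 1 held 5.29% of the 5.8S starts in its mock library, against 2.00 to 2.21% in the other control mock libraries. Its mock termination at nucleotide 56 was 0.685%, against 2.61 to 2.67%. Its PSU score was 7.07 at nucleotide 55, against 1.57 to 2.31 in the other control animals, and 6.43 at nucleotide 69, against 2.43 to 2.99. The 4 values are not independent, since all use the mock library that had few starts in the middle of 5.8S. The fifth was the CMC library of control animal 2, in which nucleotide 1 held 2.06% of the 5.8S starts, against 1.53% in each of the other control CMC libraries.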

How the results depend on the processing

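Of 514 values recomputed under an alternative, 469 were scored as kept. An effect was kept if its direction and its side of the threshold held, and a count of calls if it stayed close to the main count. The effect of CMC on 5.8S positions gave 14 calls, and 25 with a window of 30 nucleotides, 24 with a filter of 10 mean starts, 9 with TMM library sizes and 12 to 22 without 1 animal (22 without control animal 1). With the starts of the same rRNA as offset there were 12. Genotype in CMC libraries gave 0 calls, 13 with DESeq2 and 0 to 8 without 1 animal; in mock libraries 0, and 1 with the replicate block. Called sites in either genotype numbered 2, 1 with a window of 50, 0 with 40 or 30, 7 with a PSU threshold of 2 (1 in Rnmt cKO) and 0 to 2 without 1 animal. Share differences without 1 animal ran from -0.77 to 0.234 points for genotype in CMC libraries and -0.017 to 1.43 for CMC against mock, which was -0.017 without the mock library of control animal 1. At nucleotide 1 the genotype difference in mock libraries ran from -1.002 to 0.0961, at 0.0961 without that library. The depletion difference at nucleotide 14 was 3.85, and -2.13 in CMC libraries. The effect of CMC turned at nucleotide 2 (0.020) to -0.44 with the same-rRNA offset, -0.20 with TMM and -0.0039 without control animal 1 (-0.0039 to 0.0322 without 1 animal). At nucleotide 133 (-0.079) it turned to 0.0523, 0.302 and 0.133, and at 134 (-0.049) to 0.0517, 0.287 and 0.187, in the same order, and to 0.0456 without Rnmt cKO animal 1. Without 1 animal they ran from -0.23 to 0.133 and from -0.20 to 0.187. The genotype difference in CMC libraries turned at nucleotide 56 to -0.079, -0.098 and -0.070 with windows of 50, 40 and 30, and to -0.039 and -0.032 without animal 2 of either genotype (-0.039 to 0.166 without 1 animal), and at nucleotide 70 to 0.179 with the same-rRNA offset and 0.121 with TMM. The causes were not tested. The replicate block, fitted by pairing animal numbers, changed no other call on 5.8S. With it the mock genotype differences were 0.612 at nucleotide 56, 0.371 at 70 and -0.50 at 15 (edgeR, adjusted p = 0.247, 0.340 and 0.363), and depletion gave exact sign-flip p of 0.375 at nucleotide 14 and 0.25 at 75. PSU differences stayed at -1.37, with adjusted p of 0.499 and 0.483 (limma). PSU deviations were not paired for all numbers (r = 0.589, 0.229, 0.127 and 0.0393), nor were CMC terminations (r = -0.087, -0.0050, -0.14 and -0.34). The starts hold no read lengths, so coverage is a stand-in. The mock library of control animal 1 limits each value at nucleotides 27 to 117. It weighs on values outside them too, such as mock termination at nucleotide 15. There it had 30.4%, against 7.12 to 18.6% in the other control mock libraries.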
